A study of Mus musculus with 8 samples.

Results

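The genes described here encode the subunits of the oxidative phosphorylation complexes that are made from the nuclear genome. They were chosen by gene symbol alone, as the Nduf subunit genes of complex I, Sdha to Sdhd of complex II, the Uqcr genes of complex III, the Cox4 to Cox8 families of complex IV and the Atp5 genes of complex V, leaving out pseudogene symbols ending in -ps. Of the 55421 transcripts in the tables, 93 had a matching symbol. Leaving out 7 pseudogene symbols and the lower of 2 rows for Atp5o gave 85 members, of which 37 belong to complex I, 4 to complex II, 8 to complex III, 19 to complex IV and 17 to complex V. The symbols miss a few true subunits, such as Cyc1 of complex III.

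RNA was sequenced from livers of male C57BL/6J mice that were 30 weeks old and had eaten a high-fat diet with 45% of its calories as fat. All mice were gavaged every other day between ZT8 and ZT10, either with PBS as the vehicle (control) or with sudachitin at 100 mg/kg body weight. ZT, or zeitgeber time, counts the hours after lights-on. Sudachitin is a polymethoxylated flavone of the peel of the citrus fruit sudachi. There were 4 groups of 2 livers, control and sudachitin at ZT6 and control and sudachitin at ZT18. All groups shared the diet and the gavage, no group on another diet was among these libraries, and the interval from the last gavage to collection is not stated in the labels.

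Oxidative phosphorylation takes place in the inner mitochondrial membrane. Complex I takes electrons from NADH and complex II from succinate, ubiquinone carries them to complex III, cytochrome c carries them to complex IV, and complex IV reduces oxygen to water. Complexes I, III and IV pump protons while they do so, and the ATP synthase, complex V, makes ATP as protons flow back. Most subunits come from nuclear genes and are imported, while a small set of core subunits is encoded by the mitochondrial genome, and both sets are built into the same complexes. Hepatocytes hold many mitochondria and use this system for fatty acid oxidation, gluconeogenesis and urea synthesis.

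NRF1 (nuclear respiratory factor 1) is a transcription factor known for regulating nuclear genes of this system, and its recognition letters were searched in the promoters, taken from RefSeq on GRCm38.p6 as 300 bases from 250 before to 50 after each start. Promoters were found for 68 of the 85 members, 73 promoters in all. The letters searched, on both strands, were GCGCA, then any base, then GCGC. They occurred in 24.7% of the 73 member promoters, in 4.60% of all 32851 promoters and in 10.7% of the 9157 other promoters with at least 60% G and C. By complex, 7 of 33 complex I genes, 2 of 3 complex II genes, 1 of 5 complex III genes, 1 of 13 complex IV genes and 6 of 14 complex V genes had a match. These 3 stretches of 100 bases, each upstream of the start and free of annotated exons, show what a match looks like in 3 members. The match is in capitals, and every stretch is on the minus strand, printed 5′ to 3′, for Ndufs5 at chr4:123718230-123718329, for Ndufb4 at chr16:37654505-37654604 and for Atp5h at chr11:115420006-115420105.
Ndufs5: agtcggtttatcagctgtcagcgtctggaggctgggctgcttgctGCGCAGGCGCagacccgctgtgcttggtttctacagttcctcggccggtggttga
Ndufb4: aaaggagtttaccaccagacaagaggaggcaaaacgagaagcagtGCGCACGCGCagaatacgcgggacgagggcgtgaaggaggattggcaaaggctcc
Atp5h: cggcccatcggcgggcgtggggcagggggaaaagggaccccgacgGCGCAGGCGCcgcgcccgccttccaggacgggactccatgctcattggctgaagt

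Other letters known for mitochondrial gene promoters were also found by the same search. The YY1 letters AAGATGGCG occurred in 9.59% of member promoters and 1.40% of all promoters, the GABPA (also called NRF2) letters CCGGAAGT in 6.85% and 3.89%, and the ERRA letters TCAAGGTCA in 2.74% and 0.423%. In the 9157 other promoters rich in G and C the shares were 2.46% for YY1, 6.77% for GABPA, close to that of the members, and 0.109% for ERRA. For letters bound by circadian clock factors the members' shares lay closer to those of all promoters: the E-box CACGTG was in 8.22% of member promoters and 7.15% of all, the RORE TAGGTCA in 4.11% and 2.61%, and the D-box TTATGTAA in 1.37% and 0.938%. In the G- and C-rich promoters these were 10.8%, 1.07% and 0.197%, further from the members' shares than those of all promoters. The numbers are small: 6, 3 and 1 member promoters held the E-box, RORE and D-box letters, and 2 held the ERRA letters. The SP1 letters GGGCGG were in 39.7% of member promoters and 35.7% of all, and in 80.4% of the G- and C-rich promoters. These are matches of letters, counted here as a description, and no binding was measured.

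Counts in exons came to 13914116 to 17759630.5 per library. The hepatocyte markers (8 of 8 detected, among them albumin) had a summed level of 84365 to 104214 CPM (counts scaled to library size) per library, against 111 to 269.9 CPM for 9 Kupffer cell and macrophage markers. Summed separately for endothelial, stellate, bile duct and red blood cells, the markers of each type came to at most 487 CPM in any library. One library stood apart: in control ZT18 replicate 1, 14 of 16 male-biased liver genes had their lowest level of the 8 livers, with a summed level of 7517 CPM against 16027 to 22547 CPM in the other livers, and all 3 tested female-biased genes of a list of 11 had their highest. Of all these marker genes, the periportal Hal fell (-0.52 ± 0.11, adjusted p = 0.0356) and the female-biased Fmo2 rose (1.76 ± 0.27, adjusted p = 0.0114, edgeR) at ZT18 against ZT6 over both treatments, Fmo2 also rose in control livers, and no other passed in any comparison. Hal passed in 8 of 15 and Fmo2 in 13 of 15 alternative settings. Control ZT18 replicate 1 also had the largest share of its exon counts in the members (1.31%, against 1.08% to 1.16%). Several medians and counts of direction without this liver are given below. Counts of direction within a complex and of groups without overlap were not recomputed with a liver left out. The part of this liver's other differences in these results was not tested.

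The members are short, abundant transcripts. The low-count filter was passed by 78 of the 85 members, with a median mean level of 57.3 FPKM (fragments scaled to transcript length and library size) over the 8 livers, against 1.88 FPKM for all 14506 tested transcripts. Their median length was 818 bases, against 2712. They also varied little: among the 74 members with a mean of at least 10 FPKM, the coefficient of variation over the 8 livers had a median of 8.95%, against 11.4% over all 2407 tested transcripts at that level. Named after their values were seen, Ndufb5, a membrane-arm subunit of complex I, varied least (4.83%), and Atp5k, the small e subunit of the ATP synthase, varied most (23.3%).

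Complex IV had a median of 96.0 FPKM over its 12 tested members, complex III 92.6 FPKM over 8, complex V 87.6 FPKM over 17, complex II 67.9 FPKM over 4 and complex I 36.6 FPKM over 37. Complex III was the most even by FPKM, from 54.4 ± 3.94 FPKM (SD, n = 8 livers) for the core protein gene Uqcrc2 to 100.0 ± 12.0 FPKM for Uqcrb, a ratio of 1.84. The row of Uqcrq, also in complex III, is 3.75 times as long as its shortest annotated coding transcript. The ratio would be larger if the shorter form is the one made. In complex II the flavoprotein gene Sdha was highest at 82.1 ± 10.6 FPKM, followed by the iron-sulphur gene Sdhb at 72.3 ± 4.74 FPKM, and the membrane anchor Sdhc was lowest at 26.7 ± 1.96 FPKM. Sdha and Sdhb differed by about 1 SD over the livers, and both lay above Sdhc in all 8 livers.

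In complex I the levels ran from 4.17 ± 0.515 FPKM for Ndufb2 to 185 ± 16.5 FPKM for Ndufa4, a gene named after complex I whose protein is now placed in complex IV. Most core subunits made in the nucleus, though not Ndufs3, hold the flavin or iron-sulphur clusters. Among the core subunit genes, Ndufs8 was at 41.1 ± 2.78, Ndufs3 at 38.4 ± 2.57, Ndufv1 at 37.2 ± 4.73, Ndufs7 at 29.5 ± 2.96, Ndufv2 at 26.0 ± 2.02 and Ndufs1 at 19.8 ± 2.17 FPKM. The steps from Ndufs8 to Ndufs3 and from Ndufs3 to Ndufv1 were about the SD over the livers or less, and the later steps in this order were larger. This order also depends on the row lengths. The rows of Ndufv2 and Ndufs7 are 1.82 and 1.28 times as long as the shortest annotated coding transcript of the gene. Both would rank higher if the shorter form is the one made. In complex V the catalytic beta subunit gene Atp5b was the highest of all members at 245 ± 25.5 FPKM, above the alpha subunit gene Atp5a1 at 178 ± 20.8 FPKM. The low values of Ndufb2 and Atp5g1 carry a length limit: their rows are 9.60 and 7.90 times as long as the shortest annotated coding transcript of the gene. In all, 7 members had a ratio over 2, which lowers FPKM where the shorter form is the one made. Uqcrq of complex III is among these 7, so the rank of Atp5b as the highest member also depends on the row lengths.

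Several complex IV subunits exist as pairs of isoforms, of which one is widely expressed and one is known from heart and muscle, lung or testis, and the liver libraries held almost only the widely expressed forms. Cox6a1 reached 229.7 ± 24.1 FPKM and Cox6a2, the muscle form, 0.196 FPKM. Cox4i1 had 223 ± 22.1 FPKM, while Cox4i2, known from lung, had 0 to 3 reads per library. The muscle form Cox8b had 0.5 to 5.5 reads and the testis form Cox6b2 0 to 5.5 reads, against 178 ± 20.4 FPKM for Cox8a and 106 ± 9.94 FPKM for Cox6b1. Cox8c and Cox7b2 had no read in any of the 8 libraries, which allows up to 3 reads in a library. Cox6c2, annotated as a processed pseudogene, had 0 to 3.5 reads. These 7 genes did not pass the low-count filter and were not tested. In the Cox7a family the liver form Cox7a2 was at 64.1 ± 6.34 FPKM, the related Cox7a2l, known as a supercomplex factor, at 30.6 ± 3.49 FPKM and the muscle form Cox7a1 at 1.26 ± 0.453 FPKM, the lowest tested member. The markers of striated muscle came to 1.83 to 6.22 CPM per library in sum. The ATP synthase c subunit, the rotor ring, is encoded by 3 genes for the same mature protein: Atp5g3 had 195 ± 24.9, Atp5g2 44.3 ± 3.92 and Atp5g1 9.91 ± 0.671 FPKM. The order of Atp5g2 and Atp5g1 rests on the row lengths of 726 and 4710 bases. By mean count per library it is the reverse, 1096 for Atp5g2 and 1599 for Atp5g1.

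**Figure D1:**
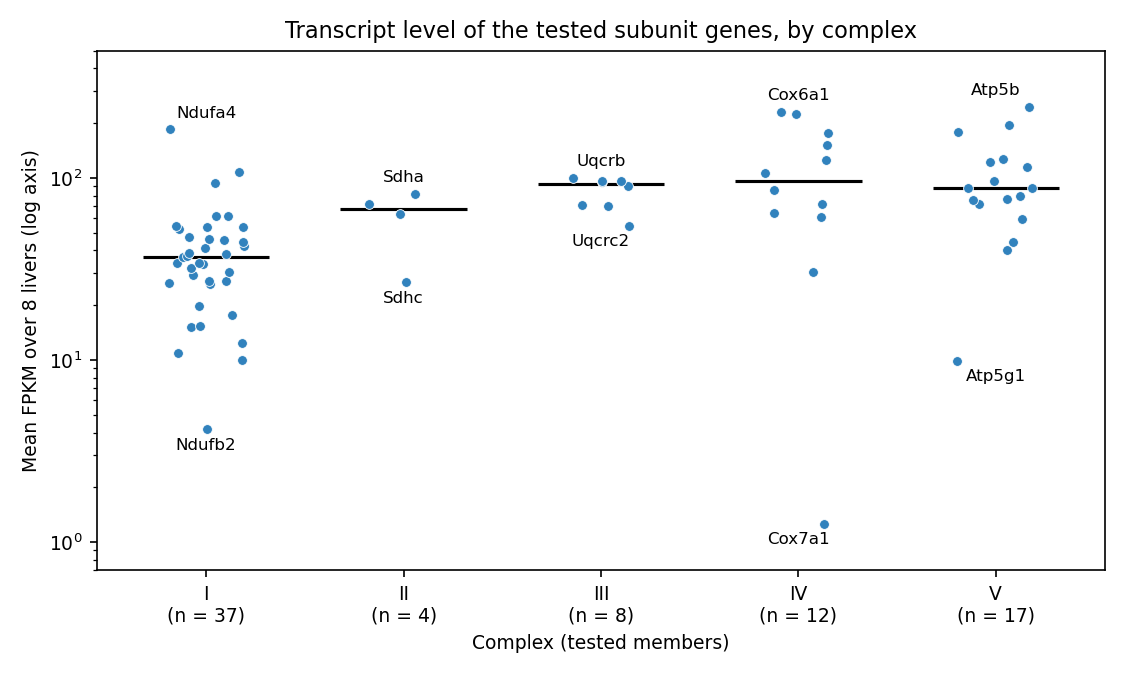
Mean FPKM over 8 livers (log axis) of the 78 tested members, by complex; each point is 1 gene, the line is the median of the complex, and the highest and lowest gene are named. Complexes III, IV and V have medians of 87.6 to 96.0 FPKM and complex I 36.6 FPKM, and Cox7a1 lies far below the other complex IV genes.

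For the comparison of the groups, each member's log2 CPM in a liver was set against its own mean over the 8 livers, and the median of these deviations was taken over the members. The values were -0.12 and -0.036 in the control livers at ZT6, -0.039 and -0.029 in the sudachitin livers at ZT6, 0.16 and 0.062 in the control livers at ZT18, and 0.082 and -0.059 in the sudachitin livers at ZT18. Both control livers at ZT18 were above all 4 livers at ZT6, the sudachitin livers at ZT18 were split, one between the control livers and one below 3 of the 4 livers at ZT6, and the pooled SD within groups was 0.068. Control ZT18 replicate 1 held the highest level of 44 of the 78 members, against 19.7% of all tested transcripts, and control ZT6 replicate 1 the lowest of 34, against 12.2%. By group mean, 67 of 78 members were highest in control livers at ZT18, against 29.4% of all tested transcripts. Without control ZT18 replicate 1, an alternative added after seeing the data, the count was 52 of 78, against 30.6%. In bulk tissue, fewer cells of a type and less RNA per cell cannot be told apart.

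**Figure D2:**
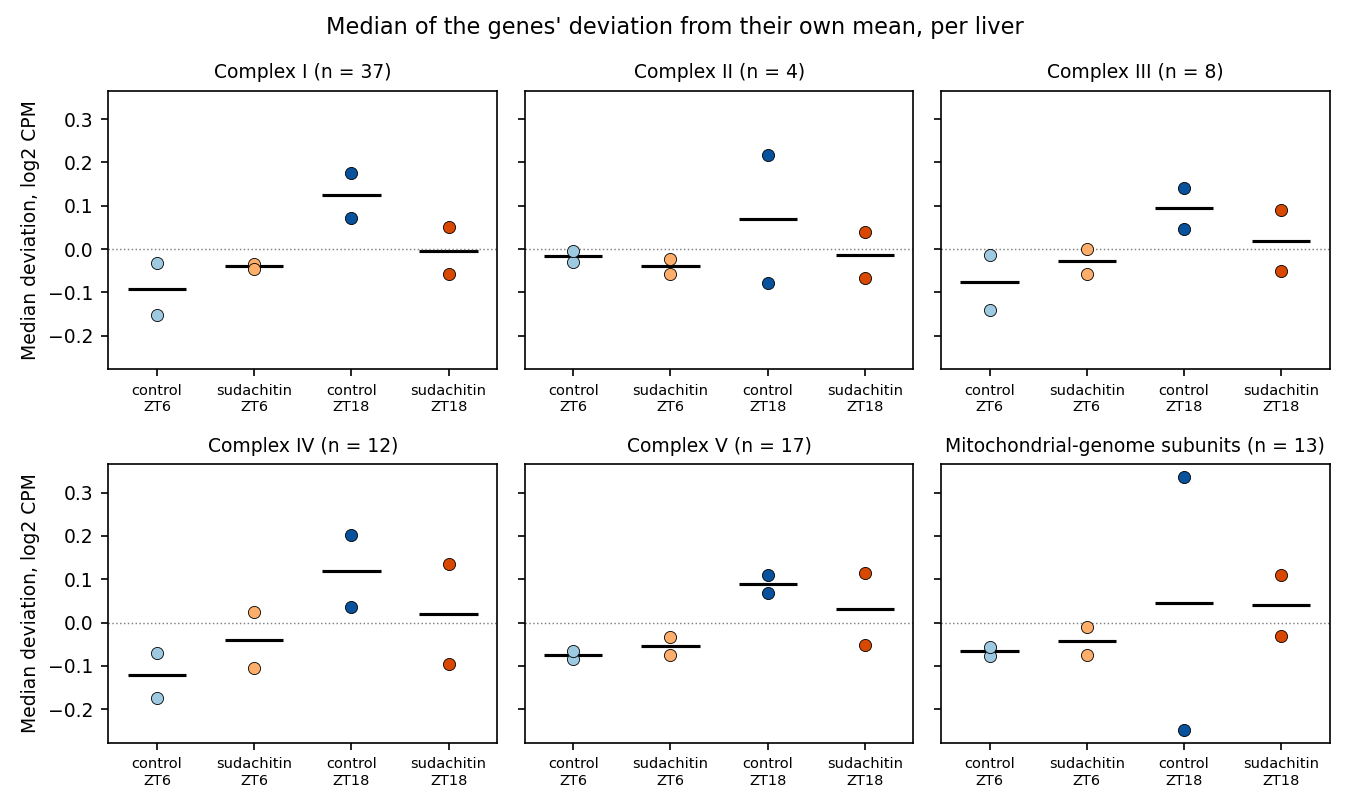
Median deviation of the genes from their own 8-liver mean (log2 CPM, vertical axis) in each liver, for each complex and for the subunits encoded by the mitochondrial genome; points are livers, lines group means, n the number of genes. In complexes I, III, IV and V both control livers at ZT18 lie above both control livers at ZT6, and for the mitochondrial-genome subunits the 2 control livers at ZT18 are the lowest and the highest of the 8.

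The first comparison asked how the subunit genes differ between day and night in control livers. Members were mostly higher at ZT18 than at ZT6: 76 of 78 fitted log2 differences were above 0, against 52.8% of all tested transcripts, with a median of 0.18 (1.14-fold) against 0.021 for all. Complex medians were 0.20 for complex I, 0.10 for II, 0.15 for III, 0.22 for IV and 0.16 for V. Without control ZT18 replicate 1 they were 0.13, -0.064, 0.10, 0.13 and 0.16 in that order, so the direction of complex II rested on that liver, and 66 of 78 members were above 0. No single member passed edgeR's quasi-likelihood test at a Benjamini-Hochberg adjusted p of 0.05 over all 14506 transcripts, where 76 transcripts (0.524%) passed. At an unadjusted p under 0.05 there were 10 members, all higher at ZT18, against 6.6% of all transcripts in that direction, and DESeq2 gave 6 members at an unadjusted p under 0.05 and 0 adjusted. Without overlap between the 2 groups, 49 members were higher and 0 lower at ZT18, against 21.3% and 21.1% of all transcripts. Abundant transcripts under 1000 bases that are no members (mean of at least 10 FPKM, n = 471) also leaned upward, with a median of 0.064 and 290 above 0. Of these, 118 were higher and 58 lower without overlap. The median was 0.13 without control ZT18 replicate 1 and 0.25 without replicate 2. In the same comparison 5 of 5 bile duct markers (median 1.03) and 7 of 9 Kupffer cell and macrophage markers (0.28) were above 0, and 4 of 5 pericentral genes (-0.37) and 15 of 16 male-biased genes (-0.50) were below 0. None of these passed. All 3 tested female-biased genes were above 0 (median 3.10), and 1 of them, Fmo2, passed (adjusted p = 0.0216, edgeR). The median deviation of the male-biased genes was -1.52 in control ZT18 replicate 1 and 0.34 in replicate 2. The part of these lists in the members' difference was not tested. Leaving out control ZT6 replicate 1 left 1 member at an unadjusted p under 0.05, and leaving out control ZT18 replicate 1 left 5.

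The 3 members with the smallest p in this comparison did not pass. Uqcr10, a small subunit of complex III encoded at chr11:4701973-4704342, had 75.3 and 76.3 CPM in the control and 75.4 and 88.0 in the sudachitin livers at ZT6, and 119 and 98.0 in the control and 95.1 and 84.9 in the sudachitin livers at ZT18. Its control livers at ZT18 were the 2 highest of the 8, and the difference of ZT18 from ZT6 in control was 0.52 ± 0.14, adjusted p = 0.198 (log2 ± SE, edgeR). Ndufa5, an accessory subunit at the ubiquinone-binding part of complex I (chr6:24518666-24528013), had 40.2 and 46.9 CPM in the control and 45.0 and 47.2 in the sudachitin livers at ZT6, and 57.6 and 55.9 in the control and 55.2 and 50.8 in the sudachitin livers at ZT18, a difference in control of 0.38 ± 0.12, adjusted p = 0.258 (edgeR). All 4 livers at ZT18 were above all 4 at ZT6 for Ndufa5. Cox7b, an X-linked subunit of complex IV (chrX:106015700-106022450), had 107 and 113 CPM in the control and 113 and 144 in the sudachitin livers at ZT6, and 149.9 and 153 in the control and 153 and 125 in the sudachitin livers at ZT18, and its difference in control was 0.46 ± 0.16, adjusted p = 0.275 (edgeR). For Cox7b one sudachitin liver at ZT6 reached into the range of the ZT18 livers.

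In sudachitin livers the same comparison of ZT18 with ZT6 gave smaller values. The median over the members was 0.047 against 0.0068 for all transcripts, with 54 of 78 above 0 against 50.9%. No member passed edgeR's test, where 27 transcripts (0.186%) passed, and 0 members had an unadjusted p under 0.05, with edgeR or DESeq2, against 12.6% of all transcripts. Groups did not overlap for 18 members higher and 3 lower at ZT18, against 23.5% and 22.3%, so that the share of members higher was near that of all transcripts. The smallest p-values belonged to Ndufa10 (0.22 ± 0.11, adjusted p = 0.457, edgeR), Ndufv3 (-0.22 ± 0.13, adjusted p = 0.525), and Ndufa5 (0.20 ± 0.12, adjusted p = 0.542). Of the marker lists, 14 of 16 male-biased genes (median 0.37) and 1 of 9 Kupffer cell and macrophage markers (-0.34) were above 0. None passed, and their part was not tested. The sign of the members' median rested on 1 liver and on the scale. It was -0.028, with 32 of 78 above 0, without sudachitin ZT18 replicate 1, 0.12, with 70 above 0, without replicate 2, and -0.031 on the FPKM scale, where the median of all transcripts also shifted by -0.10.

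Over both treatments together, with treatment as a term of the model, the median difference of ZT18 from ZT6 was 0.12 against 0.019 for all transcripts, and 73 of 78 members were above 0 against 52.7%. No member passed edgeR's test, although 534 transcripts (3.68%) did. There were 7 members at an unadjusted p under 0.05, all higher, against 10.6% of all transcripts higher, and DESeq2 gave 6 unadjusted and 0 adjusted. The closest to the threshold were Ndufa5 (0.29 ± 0.086, adjusted p = 0.0985, edgeR), Ndufa10 (0.23 ± 0.072, adjusted p = 0.115) and Uqcr10 (0.33 ± 0.11, adjusted p = 0.144). All 4 livers at ZT18 were above all 4 at ZT6 for 9 members and below for 0, against 5.99% and 7.02% of all transcripts. Among the 9 were Ndufv2 and Ndufs7, core subunits of complex I, the accessory subunit gene Ndufa5, and Atp5g1. Without control ZT18 replicate 1 the median was 0.068, with 67 of 78 above 0, and that of complex II turned from 0.065 to -0.016.

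The intervals bound the size of the differences that these data allow. In control livers the 95% interval of the difference between ZT18 and ZT6 lay within a 2-fold change in either direction for 76 of 78 members, and within 1.5-fold for 63. Cox7a1, the lowest tested member, and Atp5k had wider intervals. Over both treatments the intervals of 77 members lay within 2-fold and of 76 within 1.5-fold.

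**Figure D3:**
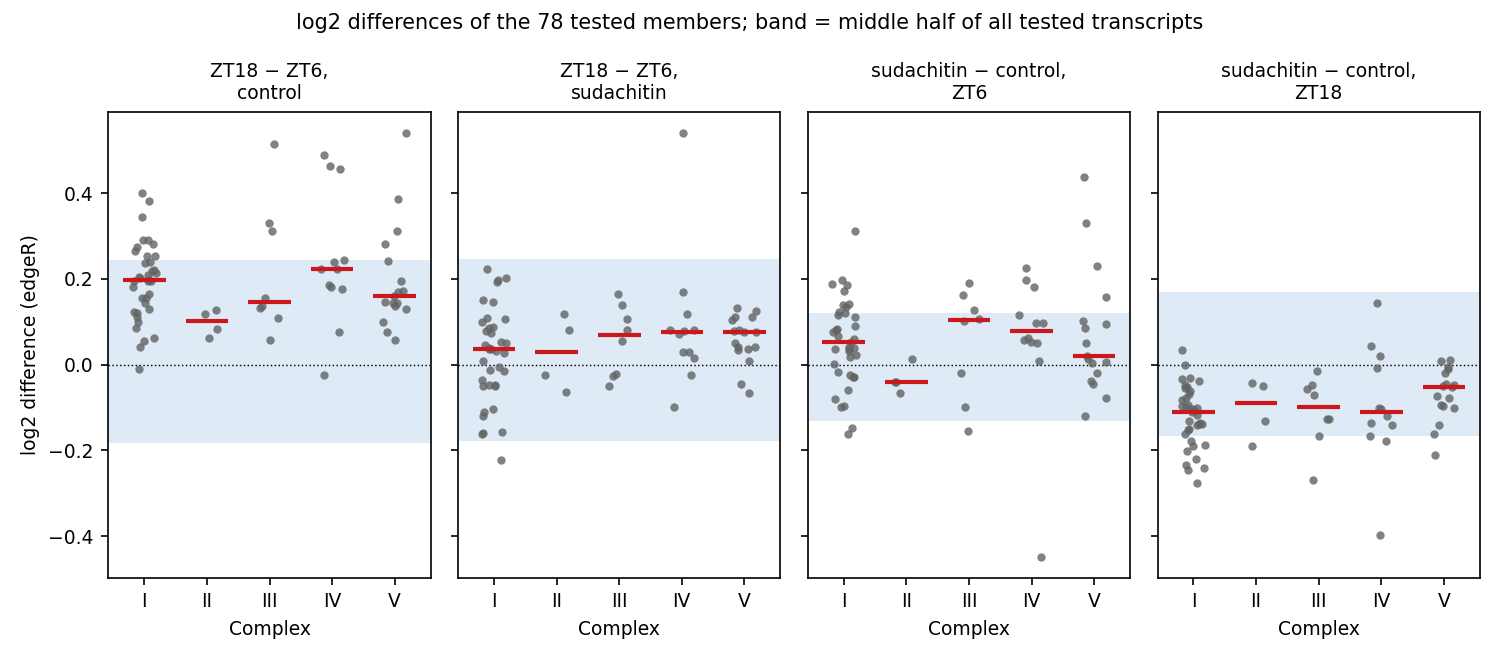
Fitted log2 differences (edgeR, vertical axis) of the 78 tested members by complex, for ZT18 against ZT6 in each treatment and for sudachitin against control at each time; each point is 1 gene, red lines are complex medians and the band runs from the lower to the upper quartile of all 14506 tested transcripts. Most points lie above 0 for ZT18 against ZT6 in control and below 0 for sudachitin against control at ZT18.

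The second comparison asked how sudachitin livers differ from control livers at each time. At ZT6 the members were near the control level, with a median log2 difference of 0.053 against -0.0050 for all transcripts and 56 of 78 above 0 against 48.8%. No member and no other transcript passed edgeR's test (0 of 14506, 0%), while DESeq2 called 9 transcripts and 0 members. There were 0 members at an unadjusted p under 0.05 with edgeR or DESeq2, against 2.12% of all transcripts with edgeR. Groups did not overlap for 16 members higher and 10 lower with sudachitin, against 15.4% and 16.3% of all transcripts, so that both shares were near those of all transcripts. Among the 10 lower were the alpha and beta subunit genes of the ATP synthase (Atp5a1, -0.12 ± 0.14, and Atp5b, -0.078 ± 0.15), Sdha (-0.065 ± 0.15) and Ndufs1 (-0.15 ± 0.12). Among the 16 higher were Cox4i1 (0.057 ± 0.13), Ndufs3 (0.12 ± 0.11) and Ndufv2 (0.077 ± 0.12). Each of the named differences was near or below its SE, so no direction is read from them. The median of the 31 members under 700 bases was 0.090 and that of the 47 longer ones 0.036. Abundant transcripts under 1000 bases that are no members had 0.066 (n = 471), so the members' median at ZT6 was not above that of other short transcripts. Without control ZT6 replicate 1 the median was 0.015, and without replicate 2 it was 0.10. Of the marker lists, 9 of 9 Kupffer cell and macrophage markers were above 0 (median 0.65). Their median deviation was -0.0073 in sudachitin ZT6 replicate 1 and 0.66 in replicate 2. Also above 0 were 3 of 16 male-biased genes (-0.31), 1 of 6 endothelial markers (-0.14) and 0 of 6 stellate cell markers (-0.10). None passed, and their part was not tested.

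At ZT18 members were mostly lower in sudachitin than in control livers. Of 78 differences 72 were below 0, so that 6 were above 0 against 49.6% of all transcripts, with a median of -0.10 (a ratio of 0.932) against -0.0021 for all and -0.017 for the 471 other short transcripts. The complex medians were -0.11 for I, -0.091 for II, -0.099 for III, -0.11 for IV and -0.053 for V. No member passed edgeR's test, where 2 transcripts (0.0138%) passed, and 0 members had an unadjusted p under 0.05 with edgeR or DESeq2, against 6.51% of all transcripts. Both sudachitin livers were below both control livers for 25 members, 19 of them in complex I, and above for 0, against 15.5% and 15.3% of all transcripts. This comparison shares the control livers at ZT18 with the comparison of times in control. Leaving out control ZT18 replicate 1 gave a median of -0.063, with 20 of 78 above 0, and complex medians of 0.050 for II and -0.0064 for IV. Leaving out the first sudachitin liver at ZT18 gave -0.19, with 2 above 0. Leaving out the second gave -0.029, with 28 above 0, and complex medians of -0.0091 for IV and 0.041 for V. The direction of complexes II and V thus rested on 1 liver each, and 12 members were above 0 without control ZT18 replicate 2. Of the marker lists, 16 of 16 male-biased genes were above 0 in this comparison (median 0.94) and 6 of 6 stellate cell markers below 0 (-0.11), with none passing, and their part was not tested.

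The smallest p-values at ZT18 belonged to 3 small accessory subunits, none of which passed. Ndufb3, in the membrane arm of complex I, had 51.0 and 50.9 CPM in control and 44.9 and 41.0 CPM in sudachitin livers at ZT18, a log2 difference of -0.24 ± 0.11, adjusted p = 0.783 (edgeR, 95% interval -0.51 to 0.016). For Ndufs5, whose promoter is shown above, the values were 70.4 and 66.3 CPM in control and 60.7 and 54.9 CPM in sudachitin livers (-0.24 ± 0.12, adjusted p = 0.789, edgeR). Uqcr10 differed by -0.27 ± 0.14, adjusted p = 0.804 (edgeR). In all 3 the 2 groups did not overlap, and the intervals of 73 of 78 members lay within a 1.5-fold change in either direction.

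Whether the treatment difference itself changed with time was tested by the interaction. The median over the members was -0.15 against -0.0039 for all transcripts and -0.082 for the 471 other short transcripts, and 6 of 78 were above 0 against 49.5%. That count was 20 without control ZT18 replicate 1, where complex II turned from -0.068 to 0.078, 14 without control ZT6 replicate 1, 10 without the first sudachitin liver at ZT6, and 2 and 19 without the first and the second at ZT18. The median was -0.25 and -0.071 without the first and the second sudachitin liver at ZT18, and -0.12 without control ZT18 replicate 1. No transcript passed edgeR's test (0 of 14506, 0%), while DESeq2 called 12 transcripts and 0 members. At an unadjusted p under 0.05 there was 1 member with edgeR, against 3.78% of all transcripts, and 0 with DESeq2. That member was Ndufa6, a complex I accessory subunit at chr15:82350140-82354322, with 109.9 and 110.1 CPM in the control and 127 and 123 in the sudachitin livers at ZT6, and 128 and 128 in the control and 115 and 109.5 in the sudachitin livers at ZT18. Its sudachitin livers were above both controls at ZT6 and below both at ZT18, an order found in 5 of 78 members and 2.05% of all transcripts (interaction -0.38 ± 0.15, adjusted p = 0.998, edgeR). Next by p were Ndufa3 (-0.45 ± 0.22, adjusted p = 0.998) and Uqcr10 (-0.38 ± 0.20, adjusted p = 0.998), with the direction of Ndufa6. The difference between times in control and in sudachitin livers was therefore not shown to differ for any member. In the interaction 16 of 16 male-biased genes (median 1.24) were above 0. So were 1 of 9 Kupffer cell and macrophage markers (-0.59) and 0 of 3 tested female-biased genes (-2.33). None passed, and their part was not tested.

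Over both times together, sudachitin against control had a median of -0.026 over the members, with 28 of 78 above 0 against 49.7% of all transcripts. No member was among the 3 transcripts (0.0207%) that passed edgeR's test, and 1 had an unadjusted p under 0.05 with edgeR and 1 with DESeq2, against 4.41% of all transcripts with edgeR. The smallest p-values were those of Ndufa10 (-0.17 ± 0.072, adjusted p = 0.996, edgeR), Ndufs5 (-0.17 ± 0.084, adjusted p = 0.996) and Ndufs1 (-0.16 ± 0.081, adjusted p = 0.996). Ndufa10, an accessory subunit of the membrane arm (chr1:92439010-92473860), had 149 and 137 CPM in the control and 129.9 and 126 in the sudachitin livers at ZT6, and 171 and 166 in the control and 152 and 147 in the sudachitin livers at ZT18. Its sudachitin livers were below the control livers at both times, and its livers at ZT18 were above those of the same treatment at ZT6. The sign of the median turned when 1 liver was left out, to 0.014 when this was control ZT18 replicate 1 and to 0.015 when it was the second sudachitin liver at ZT18, with 45 and 43 of 78 above 0. Without control ZT6 replicate 1, 15 were above 0. In this comparison 9 of 9 Kupffer cell and macrophage markers (median 0.41) and 13 of 16 male-biased genes (0.36) were above 0. The same held for 0 of 6 stellate cell markers (-0.33) and 0 of 3 tested female-biased genes (-1.05). None passed, and their part was not tested.

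Within complex I, the core subunits followed the accessory ones without standing out. In control livers the differences of ZT18 from ZT6 were 0.27 ± 0.12 for Ndufv2, 0.21 ± 0.11 for Ndufs3, 0.20 ± 0.15 for Ndufs7, 0.16 ± 0.15 for Ndufv1, 0.16 ± 0.13 for Ndufs8 and 0.12 ± 0.12 for Ndufs1 (log2 ± SE), each near or below 2 SE. Ndufs1, the largest iron-sulphur subunit, had 117 and 111 CPM in the control and 100.1 and 106 in the sudachitin livers at ZT6, and 135 and 114 in the control and 109.9 and 112 in the sudachitin livers at ZT18. Control ZT18 replicate 1 was the highest liver for Ndufs1, and both sudachitin livers at ZT6 were below both controls. Ndufv2, a subunit of the NADH-oxidising arm, had 84.7 and 87.4 CPM in the control and 90.4 and 91.2 in the sudachitin livers at ZT6, and 96.1 and 111 in the control and 106 and 95.5 in the sudachitin livers at ZT18, so that all ZT18 livers were above all ZT6 livers. Ndufa3, an accessory subunit, had 28.8 and 39.3 CPM in the control and 39.2 and 45.3 in the sudachitin livers at ZT6, and 44.9 and 45.0 in the control and 41.9 and 39.8 in the sudachitin livers at ZT18, and the low value was control ZT6 replicate 1. Ndufv3, an accessory subunit of the NADH arm, ran the other way in sudachitin livers, with 54.0 and 61.0 CPM at ZT6 and 53.5 and 45.0 CPM at ZT18.

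In complexes II and III, no subunit passed in any comparison. Sdha, the succinate-oxidising flavoprotein, had 536 and 509.7 CPM in the control and 500.4 and 499 in the sudachitin livers at ZT6, and 624 and 467 in the control and 494 and 462 in the sudachitin livers at ZT18. The value of control ZT18 replicate 1 was the highest and that of the other control liver at ZT18 among the lowest, so the difference of 0.061 ± 0.15 was within the spread. Sdhb had 151 to 194 CPM and Sdhc 172 to 204 CPM over the 8 livers. In complex III the core proteins and the Rieske iron-sulphur protein had small differences of ZT18 from ZT6 in control, 0.058 ± 0.12 for Uqcrc1, 0.13 ± 0.12 for Uqcrc2 and 0.14 ± 0.13 for Uqcrfs1. The difference was 0.31 ± 0.15 for the small subunit gene Uqcrb, beside that of Uqcr10 above. The libraries do not mark strand, and Uqcrb and Uqcrc2 share exon bases with another annotated gene on the opposite strand, as do Ndufs1, Ndufs3, Ndufa3, Ndufb2, Ndufb5, Cox4i1, Cox5a, Cox6a2, Atp5a1, Atp5md and Atp5o among the genes named here, so their levels may hold reads of that gene.

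In complex IV, 11 of 12 tested members, the exception being Cox7a2l, were above 0 for ZT18 against ZT6 in control. The subunits around the catalytic core had 0.24 ± 0.13 (Cox5a), 0.24 ± 0.13 (Cox5b) and 0.22 ± 0.13 (Cox4i1), and the isoform genes 0.22 ± 0.13 (Cox6a1), 0.19 ± 0.13 (Cox6b1), 0.18 ± 0.15 (Cox8a), 0.076 ± 0.16 (Cox7a2) and -0.025 ± 0.16 (Cox7a2l). Cox4i1, the main subunit 4, had 341 and 347 CPM in the control and 359 and 357 in the sudachitin livers at ZT6, and 423 and 380.3 in the control and 399 and 332 in the sudachitin livers at ZT18. Control ZT18 replicate 1 was again highest, and one sudachitin liver at ZT18 was the lowest of the 8. Cox7a1 had only 0.553 to 1.73 CPM, and its differences between 2 groups had SEs of up to 0.48, its interaction one of 0.63.

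In complex V all 17 members were above 0 for ZT18 against ZT6 in control, and none passed. Atp5b had 1022 and 993 CPM in the control and 936 and 974 in the sudachitin livers at ZT6, and 1179.8 and 946 in the control and 1072 and 948 in the sudachitin livers at ZT18, a difference in control of 0.077 ± 0.15. Atp5a1 differed by 0.15 ± 0.14. For both, control ZT18 replicate 1 was the highest liver and the other control liver at ZT18 was within the range of the ZT6 livers. Atp5g3, the main c subunit gene, had 263 and 287 CPM in the control and 287 and 282 in the sudachitin livers at ZT6, and 373 and 309.7 in the control and 304 and 286 in the sudachitin livers at ZT18 (0.31 ± 0.13, adjusted p = 0.374 in control, edgeR). Atp5g1 differed by 0.24 ± 0.11 and Atp5g2 by 0.058 ± 0.13. Atp5md and Atp5mpl, small proteins attached to the membrane part of the synthase, had the smallest p-values of their complex for time over both treatments and, among complex V genes, for treatment at ZT6: Atp5md 0.21 ± 0.098, adjusted p = 0.271 and Atp5mpl 0.33 ± 0.19, adjusted p = 0.9999 (edgeR). For Atp5mpl the ZT6 values were 40.2 and 37.3 CPM in control and 39.4 and 58.0 CPM in sudachitin livers, so that only 1 of the 2 sudachitin livers was above both controls.

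**Figure D4:**
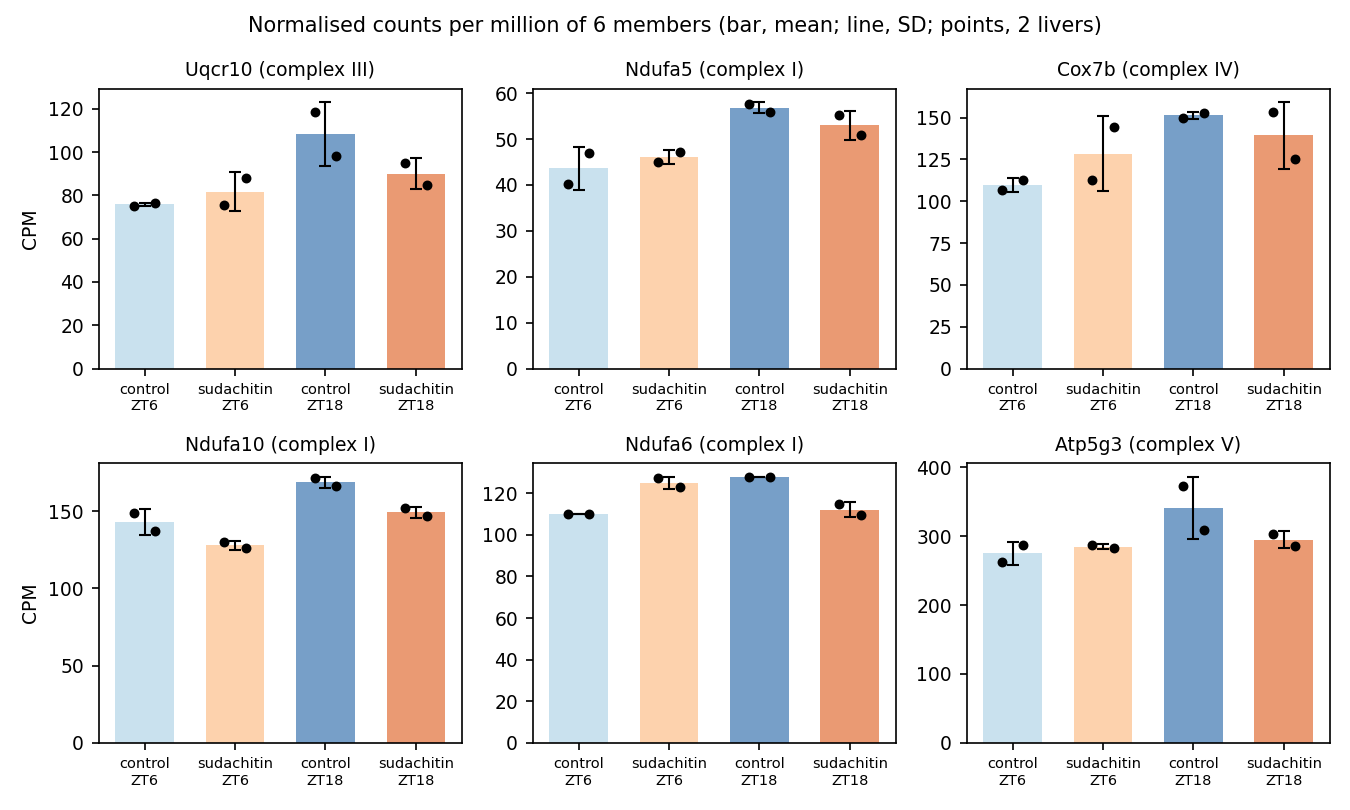
Normalised CPM of 6 members in the 4 groups; points are the 2 livers of a group, bars their mean and lines the SD. For Uqcr10, Ndufa10 and Atp5g3 the 2 control livers at ZT18 are the highest of the 8, for Ndufa5 all ZT18 livers lie above the ZT6 livers, and for Ndufa6 the order of the treatments differs between ZT6 and ZT18.

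The 13 subunits encoded by the mitochondrial genome did not follow the nuclear ones liver by liver. Their summed level was 62918 and 60355 CPM in control and 60692 and 60991 CPM in sudachitin livers at ZT6, and 55677 and 81820.4 CPM in control and 64094 and 68744 CPM in sudachitin livers at ZT18. Control ZT18 replicate 1, the liver in which most nuclear members were highest, held the lowest level of 9 of the 13, and the other control liver at ZT18 had the highest sum. None of the 13 passed edgeR's test in any comparison, and the median difference of ZT18 from ZT6 in control was 0.15.

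The genes that assemble and serve the complexes were counted from lists with the same test. Over both treatments, ZT18 against ZT6, 1 of 16 tested complex I assembly genes rose (Ndufaf4), 1 of 23 complex IV assembly genes rose (Coa6), and of 19 genes of cytochrome c and coenzyme Q, 1 rose (Cycs) and 1 fell (Coq8a). That is 4 of the 78 genes tested in these 7 lists (5.13%), beside the 3.68% of all transcripts that passed in this comparison. None passed of 4 complex II, 6 complex III and 4 ATP synthase assembly genes and of 6 carriers of ATP, ADP and phosphate or outer-membrane channels. In the other 6 comparisons no gene of these 7 lists passed edgeR's test. Ndufaf4, a complex I assembly factor, had 23.0 and 25.9 CPM in control and 25.6 and 21.2 in sudachitin livers at ZT6, and 31.4 and 35.6 in control and 29.7 and 30.5 in sudachitin livers at ZT18 (0.41 ± 0.092, adjusted p = 0.0453, edgeR). Coa6, a copper-handling factor of complex IV, had 18.3 and 20.8 CPM in control and 22.2 and 15.7 in sudachitin livers at ZT6, and 30.6 and 30.8 in control and 25.3 and 24.8 in sudachitin livers at ZT18 (0.53 ± 0.12, adjusted p = 0.0430, edgeR). For both genes all 4 livers at ZT18 were above all 4 at ZT6.

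Cycs, the cytochrome c that links complexes III and IV, had 90.0 and 92.5 CPM in control and 84.2 and 89.9 in sudachitin livers at ZT6, and 116 and 123 in control and 108 and 105 in sudachitin livers at ZT18 (0.34 ± 0.074, adjusted p = 0.0400, edgeR). Coq8a, an atypical kinase needed for coenzyme Q synthesis, had 470.4 and 473 CPM in control and 534 and 454 in sudachitin livers at ZT6, and 337 and 340.3 in control and 306 and 371 in sudachitin livers at ZT18 (-0.51 ± 0.093, adjusted p = 0.0222, edgeR). The ZT18 and ZT6 livers did not overlap for either gene, and they differed in opposite directions. All 4 genes kept their direction in 15 alternative settings, but Ndufaf4 passed in 4 of 15, Coa6 in 5 of 15, Cycs in 3 of 15 and Coq8a in 10 of 15 settings, and all 4 passed without control ZT18 replicate 1. The highest adjusted p of edgeR among them were 0.143 for Ndufaf4 and 0.137 for Coa6 without control ZT6 replicate 1, and 0.146 for Cycs and 0.0750 for Coq8a without the first sudachitin liver at ZT6. Of the genes that did not pass, Slc25a5, an ADP/ATP carrier, had the smallest p of its list (0.30 ± 0.11, adjusted p = 0.150), as had Sdhaf4 (0.34 ± 0.12, adjusted p = 0.157) for complex II assembly, Ttc19 (0.16 ± 0.096, adjusted p = 0.392) for complex III assembly and Atpif1 (0.16 ± 0.18, adjusted p = 0.665, edgeR), the ATP synthase inhibitor, for its list. The medians over the tested genes of these lists were -0.010 for complex I, 0.084 for complex II, 0.054 for complex III, 0.014 for complex IV and 0.070 for ATP synthase assembly, 0.036 for cytochrome c and coenzyme Q and 0.11 for the carriers, beside 0.12 for the subunit genes.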

How the data were processed

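Poly(A)-selected libraries without strand information were made from liver RNA with an integrity number above 9.0 and read as 150-base pairs, per the labels' protocols. The submitters' processing notes name Trimmomatic 0.39, STAR 2.7.2a and HOMER without a version, and mouse GRCm38 (mm10). How reads with several positions were treated is not stated there. The deposited counts are estimated counts in exons, 1 canonical transcript per gene, in steps of 0.5 and not normalized, per the file headers; they were rounded, with 0.5 rounded up. The deposited FPKM values are these counts divided by transcript length and by the library total, per the file headers.

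Groups came from the sample titles; since each carries its own animal code, both libraries of a group count as different mice. Counts were tested with edgeR 4.0.16 in R 4.3.3 (TMM, default low-count filter by group, quasi-likelihood F test, 4 group means over all 8 libraries, and an additive model for effects over both treatments or times), with Benjamini-Hochberg adjustment over 14506 transcripts. CPM values of single genes are TMM-normalized, while summed CPM of lists are counts scaled to the library's total exon counts, without TMM. The design had assumed counts, and rounded estimated counts were used with the same test. The test was checked on simulated whole counts with planted changes larger than the members' medians. That check covers neither the rounding nor smaller differences. SE is the fitted difference divided by the root of F. Alternatives were DESeq2 1.42.0, limma 3.58.1 on log2(FPKM + 0.1) and log2(FPKM + 1) where at least 2 libraries reached 1 FPKM, median-of-ratios factors, total counts, no filter, only the groups compared, a replicate block, and leaving out each library.

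The members and all lists were chosen with earlier results of these data known. Named members were the highest and lowest by FPKM and the smallest p by time and by treatment in each complex, fixed core subunits (1 is not reported here) and isoform families, and the 3 smallest p in each comparison; of other lists, genes that passed and up to 4 by p. Exact overlaps were taken from GENCODE vM21: 24 members overlap an exon on the opposite strand and 4 on the same strand, whose reads cannot be told apart, and 23 have a near-identical pseudogene (at least 95% over 150 bases), whose own rows held at most 1.32% of the member's count.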

Additional observations from a re-analysis of the deposited data

Results flagged for a closer look

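In 5 members, sudachitin livers were above both control livers at ZT6 and below both at ZT18, against 2.05% of all tested transcripts. The interaction was tested and did not pass in any of them. It was -0.38 ± 0.15, adjusted p = 0.998 for Ndufa6, -0.24 ± 0.16, adjusted p = 0.998 for Ndufa12, -0.19 ± 0.16, adjusted p = 0.998 for Ndufs4, -0.36 ± 0.20, adjusted p = 0.998 for Uqcr11 and -0.16 ± 0.16, adjusted p = 0.998 for Atp5g1 (log2 ± SE, edgeR).

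A second row with the symbol Atp5o, at chr16:91684398-91926982, was left out of the members and held a mean of 959.7 counts per library. It overlaps the first Atp5o row, and its counts were 773 and 824 in control and 871 and 855 in sudachitin livers at ZT6, and 1071 and 987 in control and 1264.5 and 1032 in sudachitin livers at ZT18. Its difference between ZT18 and ZT6 over both treatments was 0.26 (adjusted p = 0.166, edgeR).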

How the results depend on the processing

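No member passed in any comparison under any of the 16 alternative settings. The smallest adjusted p of a member in any of them was 0.0558, for ZT18 against ZT6 in control with no filter on low counts. The 327 recomputed values of single members named for the smallest p kept their direction and none passed. Of 109 recomputed member medians, 8 moved by more than the SD within groups of 0.068. For ZT18 against ZT6 in sudachitin livers the median was -0.031 with limma on log2(FPKM + 0.1) and -0.031 on log2(FPKM + 1). Leaving out 1 library at a time, that median ran from -0.028 to 0.12, sudachitin against control at ZT18 from -0.19 to -0.029, and the interaction from -0.25 to -0.071; each extreme came from leaving out sudachitin ZT18 replicate 1 or 2, and the liver left alone in its group was assumed to vary like the other groups. The cause was not tested. Over all transcripts, calls for ZT18 against ZT6 in control ranged from 4 to 881 beside the 76 reported, and in sudachitin from 1 to 861 beside 27.

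Replicate numbers are shared across groups, but libraries of the same number did not deviate together (correlations of deviations from -0.204 to 0.281 over 6 pairs of groups). With the replicate number as a block, the members' median for ZT18 against ZT6 in control was 0.18, with 0 members called in each of the 7 comparisons. With 2 livers a group, the median SE of a member's difference was 0.13, so that single differences near the members' medians could not be told from 0.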
